A study of Mus musculus and Homo sapiens with 40 samples.

Results

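The H3K27ac response to LPS was described in HPC-7 cells that carried the full-length CEBPA isoform, p42. H3K27ac, the acetylation of lysine 27 of histone H3, was measured by ChIP-seq in 6 of the 40 samples of the series, 3 of untreated p42 cells and 3 of p42 cells given LPS at 100 ng/mL for 2 h. The deposited data held 1 pooled peak list per group, 2 of the 11 lists of the series. HPC-7 is a mouse haematopoietic progenitor line with little CEBPA of its own. By the methods of the study, the cells of both groups were transduced with a retrovirus that expressed CEBPA p42 fused to ERT2 together with GFP, were sorted for GFP, and received 4-hydroxytamoxifen on the day before, which the sample labels do not name. ERT2 is a modified oestrogen receptor domain that keeps a fusion protein out of the nucleus until tamoxifen is given. The comparison therefore rests on 1 cell line with a forced CEBPA fusion. H3K27ac without CEBPA is not analysed here. The same mark in p30 cells, HPC-7 cells with the shorter CEBPA isoform p30 in the same fusion, untreated or given LPS in the same way (3 samples each, pooled likewise), is set beside some results.

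LPS, a component of the bacterial outer membrane, is sensed by Toll-like receptor 4. The signal releases NF-kB from its inhibitors, activates AP-1 factors through MAP kinases and induces type I interferon, and the inhibitors of NF-kB are themselves among its targets. H3K27ac marks active promoters and enhancers, and acetylation at enhancers of inflammatory genes is known to rise within hours of LPS in myeloid cells.

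After merging the 2 lists on chromosomes 1 to 19 and X wherever peaks shared at least 1 bp, 142086 regions remained. A region with a peak in both lists was called kept, one with a peak only with LPS gained, and one with a peak only without LPS lost. The kept regions numbered 74289 (52.3%), the gained 19483 (13.7%) and the lost 48314 (34.0%). Because each list was called on pooled replicates, no difference below has a replicate check, no p-value could be given, and the Wilson 95% intervals cover counting error only. The study states a range of read numbers per sample for all samples together, and the lists do not give the number behind each of them. A pooled list cannot tell fewer cells with the mark at a site from less of the mark in each cell.

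The DNA behind the pattern is shown first at 7 places, 5 gained distal regions and 2 promoters that were raised with LPS. Each window is taken from the forward strand of GRCm39. It is centred on the NF-kB match nearest to the strongest summit, or on the summit where there is none, so that an NF-kB match is there by choice. The places were picked because they hold matches. Of the 12 best-ranked gained regions considered for display, 4 had an NF-kB match within 500 bp of the summit, and of their 11 windows outside UTRs 7 held none of the marked motifs. Among the best gained regions of 25 listed genes these numbers were 8, and 13 of 23 windows. Both promoter windows end where the 5′ UTR begins. Capitals mark matches to NF-kB, AP-1, CEBP, CEBP:ATF4, CRE, ISRE, PU.1, RUNX and GATA motifs. *Txlnb* was nearest to the best-ranked gained region, with a fold enrichment of 11.3 with LPS and no untreated peak, and its intergenic window (chr10:17664344-17664543) has an NF-kB and a CEBP match. *Hpn* has a gained intronic region (8.76), without an NF-kB match, and its window (chr7:30800763-30800962) holds an AP-1 and a GATA match. The *Ccl5* window (chr11:83419805-83420004) lies in a gained intronic region 1452 bp downstream of the start. The *Socs3* window (chr11:117868669-117868868), at -8037 bp from the start, has NF-kB, CEBP and PU.1 matches. Its NF-kB and PU.1 matches lie before the gained region, which begins at chr11:117868801. The distal *Il6* window (chr5:30125340-30125539), at -92300 bp, has 2 overlapping NF-kB matches, a CEBP and a RUNX match. All of them lie before the gained region, which begins at chr5:30125494. The *Il6* promoter (chr5:30217973-30218111) has an NF-kB and a CEBP match and the *Cxcl2* promoter (chr5:91051567-91051729) has 2 overlapping NF-kB matches.
Txlnb: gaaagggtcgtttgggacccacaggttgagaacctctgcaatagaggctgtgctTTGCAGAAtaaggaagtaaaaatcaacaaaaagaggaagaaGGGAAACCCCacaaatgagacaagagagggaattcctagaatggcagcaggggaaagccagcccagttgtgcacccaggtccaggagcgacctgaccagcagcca
Hpn: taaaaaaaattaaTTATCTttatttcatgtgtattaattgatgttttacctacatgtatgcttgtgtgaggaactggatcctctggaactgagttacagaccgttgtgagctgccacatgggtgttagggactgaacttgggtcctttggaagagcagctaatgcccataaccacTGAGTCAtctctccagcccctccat
Ccl5: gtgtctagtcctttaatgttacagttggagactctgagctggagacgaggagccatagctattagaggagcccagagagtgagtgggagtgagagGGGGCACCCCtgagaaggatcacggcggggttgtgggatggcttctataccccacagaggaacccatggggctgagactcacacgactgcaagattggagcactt
Socs3: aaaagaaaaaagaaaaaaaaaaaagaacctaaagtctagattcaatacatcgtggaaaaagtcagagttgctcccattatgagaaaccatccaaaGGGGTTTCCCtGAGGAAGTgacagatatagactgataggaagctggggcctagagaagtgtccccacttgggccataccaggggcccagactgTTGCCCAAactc
Il6 distal: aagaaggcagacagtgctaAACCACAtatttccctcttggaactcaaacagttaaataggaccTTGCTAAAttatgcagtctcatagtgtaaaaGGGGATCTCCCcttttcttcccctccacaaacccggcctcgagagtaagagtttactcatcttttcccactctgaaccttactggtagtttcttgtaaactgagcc
Il6 promoter: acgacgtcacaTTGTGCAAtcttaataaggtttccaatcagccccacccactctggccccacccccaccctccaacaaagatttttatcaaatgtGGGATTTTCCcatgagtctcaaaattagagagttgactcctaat
Cxcl2 promoter: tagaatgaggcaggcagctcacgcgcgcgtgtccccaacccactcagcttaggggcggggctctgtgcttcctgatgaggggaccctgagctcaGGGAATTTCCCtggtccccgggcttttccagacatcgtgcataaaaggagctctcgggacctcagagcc
A match describes letters and does not show that a factor was bound.

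The labelled cell type was checked at 12 promoters of haematopoietic stem and progenitor genes, and all 12 had a peak in both lists. Their median fold enrichment was 33.0 untreated and 28.7 with LPS. None of 7 promoters of genes from outside blood and none of 5 B cell promoters had a peak in either list. Among 5 T cell promoters only that of *Cd3d* had one. Of 6 erythroid promoters, 1 was kept and 1 lost. Macrophage promoters were marked before LPS, since 4 of 5 had a peak in both lists, with *Marco* the exception.

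The untreated list was the longer one, with 129345 peaks over 115 Mb against 107114 peaks over 95.4 Mb with LPS. Below a stricter q-value of 1e-05 the numbers were 77392 and 66693. The strong end of both lists was shared almost completely. When each list was cut by rank into 10 classes of equal size, 100% of the untreated peaks in the strongest class, 99.8% in the next and 95.9% in the one after overlapped an LPS peak, against 23.5% in the weakest. In the LPS list the shares were 100%, 99.9% and 98.4%, and 52.7% in the weakest class. Gained regions accordingly came from the weak end, at a median of 78.5% of the way down the LPS list, and lost regions at a median of 74.2% of the untreated list. Gained regions were narrow (median 235 bp), as were lost ones (266 bp), against 901 bp for kept regions.

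Gained regions made up 28.7% of all changed regions. The share was 43.3% when both lists were cut to equal length and 41.3% when a kept peak had to overlap reciprocally by 50%. It was 28.9% with a q-value under 1e-05 in both lists, and 25.3% both when peaks within 1000 bp were stitched and when presence needed a q-value under 1e-05 and absence held at 0.05. Most gained regions lay beside acetylation that was already there. The nearest untreated peak was at a median distance of 666 bp from a gained region, and 60.1% (95% interval 59.4 to 60.7) lay within 1000 bp of one. Only 6.68% were more than 10 kb from any untreated peak. Lost regions had a median distance of 1202 bp to the nearest LPS peak, and 45.2% lay within 1000 bp. The LPS list holds fewer peaks, so these distances are not directly comparable with those of gained regions. The usual distance between neighbouring peaks was not measured.

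The summit lay in a promoter, from 1000 bp upstream to 100 bp downstream of the start of a protein-coding gene, in 2.86% of gained, 2.29% of lost and 9.39% of kept regions. Within 2500 bp on either side of a start the shares were 12.5%, 10.6% and 23.3%. Introns held 64.6% of gained and 72.9% of lost regions, and intergenic DNA held 22.0% and 12.7%. Distal regions inside the body of a gene with a marked promoter formed 72.6% of the gained, 73.2% of the kept and 83.6% of the lost ones.

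The regions were not spread alike over the chromosomes. On chromosomes 1, 16 and 17 together 19.2% of regions were gained and 27.1% lost, against 12.5% and 35.5% on the other 17. Chromosome 1 had 20.6% gained and 26.6% lost, chromosome 17 had 18.6% and 24.3%, and chromosome 16 had 17.0% and 32.4%. Each of the other chromosomes had between 10.8% and 14.1% gained, the X being the lowest and also low in loss (25.0%). The shift ran along all of chromosomes 1 and 17, where the gained share of every 20 Mb was between 16.2% and 24.2%. On chromosome 16 the first 20 Mb had 11.5% gained and 44.0% lost, and the last 20 Mb had 23.3% and 22.8%. In p30 cells 8.88% of the regions of chromosome 1 were gained and 13.1% lost, against 9.83% and 10.6% of all regions. The inflammatory gene lists are also counted without these 3 chromosomes. The cause was not tested.

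**Figure D1:**
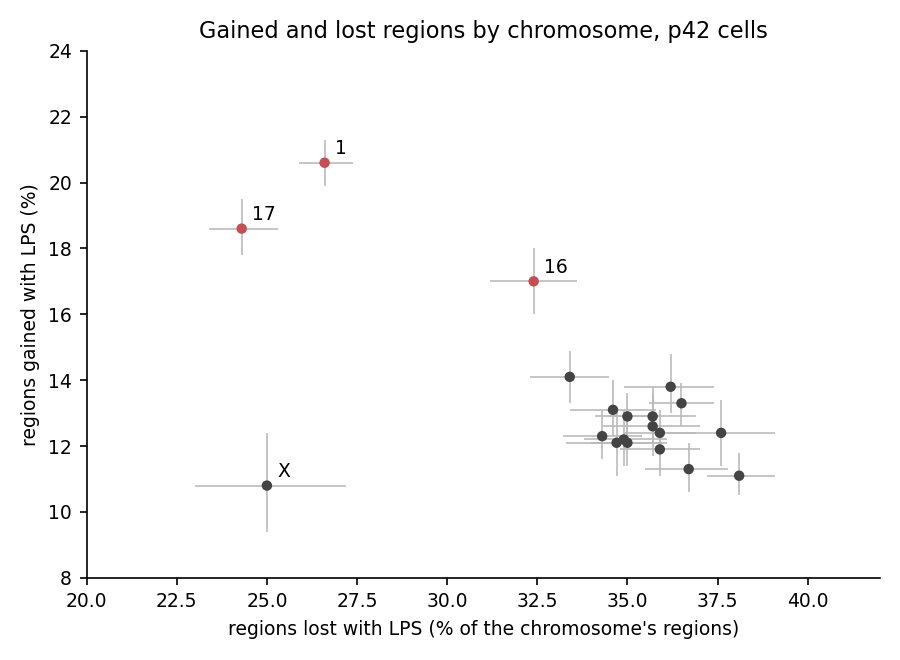
Share of the merged regions of each chromosome that were gained (vertical axis, %) against the share that was lost (horizontal axis, %) with LPS in p42 cells, 1 point per chromosome with Wilson 95% intervals (counting error only). Chromosomes 1 (20.6% gained), 16 (17.0%) and 17 (18.6%), in red, lie above the other autosomes, and X lies at 25.0% lost and 10.8% gained.

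At kept regions the change was the log2 ratio of the fold enrichment with LPS to that without, centred on the median of all kept regions. It was small at most of them, with an SD of 0.38. The ratio was at least 1 on this scale in 633 regions (0.852%), called raised, and at most -1 in 303 (0.408%), called lowered. Over 10 classes of strength the median ran from -0.18 at the strongest kept regions to 0.14 at the weakest. Kept regions also covered less sequence with LPS (-9.24%), and 8802 of them with 1 untreated peak had 2 or more LPS peaks, against 4236 where it was the reverse. On chromosomes 1, 16 and 17 1.32% of kept regions were raised, and 0.744% on the others.

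The genes nearest to the best-ranked gained regions included *Traf1*, a well-known LPS target, and genes with no such role. *Traf1* encodes an NF-kB-induced adaptor of TNF receptors. Its gained promoter region (11.7 with LPS) went from 2.23 to 18.1 in p30 cells, whereas the stronger promoter peak of the gene stood at 22.2 untreated and 18.4 with LPS in p42 cells. The other best-ranked gained regions were nearest to *Rps20*, *Lipg*, *Zfp811*, *Gm16434*, *Potefam3a*, *Myl4*, *Wfdc18* and *Hpn*, with LPS fold enrichments from 3.16 to 10.9. *Potefam3a* belongs to a family of near-identical genes, and a lost region at nearly the same distance from its relative *Potefam3b* was among the 10 best-ranked losses, so both calls are uncertain. The other best-ranked lost regions were nearest to *Dad1*, *Zfp998*, *Dnm3*, *Retnla*, *Cndp1*, *Cmas*, *Zfp386*, *Smug1* and *Zmynd19*. The best-ranked loss, nearest *Dad1* but 496413 bp from its start, had an untreated fold enrichment of 9.37. The loss nearest *Zfp386* lay at -579060 bp from its start. Genes of other types than protein-coding were not considered, so a nearer gene of another type would not be named.

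The 10 largest rises at kept regions were nearest to *Psmg1*, *Peli1*, *Mymx*, *Hcls1*, *Wfdc18*, *Nfkb1*, *St7*, *Acod1*, *Ccdc88b* and *Sod2*, and 4 of them lay on chromosome 16 or 17. The region nearest *Psmg1*, 92435 bp from its start, went from a fold enrichment of 4.16 to 23.1 (2.55 on the centred log2 scale). A region at -44578 bp from the start of *Peli1*, a ubiquitin ligase of Toll-like signalling, went from 6.18 to 29.7. Upstream of *Acod1*, which makes the metabolite itaconate in activated macrophages, a region at -9428 bp from the start went from 4.47 to 18.3. The region at -3312 bp from the nearest start of *Nfkb1*, the gene of the NF-kB p50 subunit, went from 2.77 to 11.7. In *Sod2*, the mitochondrial superoxide dismutase, an exonic region went from 3.22 to 12.3. All 10 were also higher with LPS than without in p30 cells or had a p30 peak only with LPS.

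The largest falls were nearest to *Tusc3*, *Urad*, *Clic6*, *Nfkbiz*, *Pan3*, *Zfp386* (at 2 regions), *Stard3nl*, *Rab3gap2* and *Tcp11*. Several of these nearest starts are far away, that of *Tusc3* at 136078 bp. The region nearest *Tusc3* went from 11.6 to 2.70 (-2.02). The *Nfkbiz* promoter, of an NF-kB cofactor that LPS strongly induces, went from 80.4 to 24.4 (-1.64). In p30 cells the same promoter stood at 66.8 and 57.1. A second promoter region of *Nfkbiz*, at -961 bp, moved the other way, from 4.01 to 8.13.

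Genes were next compared as lists. Each region was assigned to the protein-coding gene with the nearest start within 100 kb, which gave 13712 genes at least 1 region. With the longer untreated list, losses prevailed: 15.3% of genes had more gained than lost regions and 57.3% had more lost than gained ones, with a median difference of -1.0. At least 1 gained region was found at 52.5% of genes, at least 1 lost region at 70.9%, at least 1 raised region at 3.86% and at least 1 lowered one at 1.87%. These shares are the background for every list.

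Inflammatory genes went against that background. Over 4 lists, NF-kB genes, chemokines, cytokines and other effectors, 77 of 85 members had regions. Of these, 45 (58.4%, 95% interval 47.3 to 68.8) had more gained than lost regions and 17 (22.1%) the reverse, with a median of 1.0. At least 1 raised region was present at 20 of the 77 (26.0%), against 3.86% of all genes. Of the lists outside these 4, stem and progenitor regulators had 35.7% and growth factor and cytokine receptors 31.2%. The rest had from 0% to 24.0%. The share also depends on how many regions a gene has. By region, 26 of 542 kept regions of inflammatory genes were raised. The numbers were 5 of 309 for the stem list, 5 of 175 for receptors and 584 of 70043 for all genes. Without chromosomes 1, 16 and 17 the share with more gains was 57.6% of 66 genes, against 13.3% of all genes there. With lists cut to equal length it was 72.7%, against 26.8%. Because the 77 genes were chosen as LPS targets with results of these data known, the counts are a description.

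**Figure D2:**
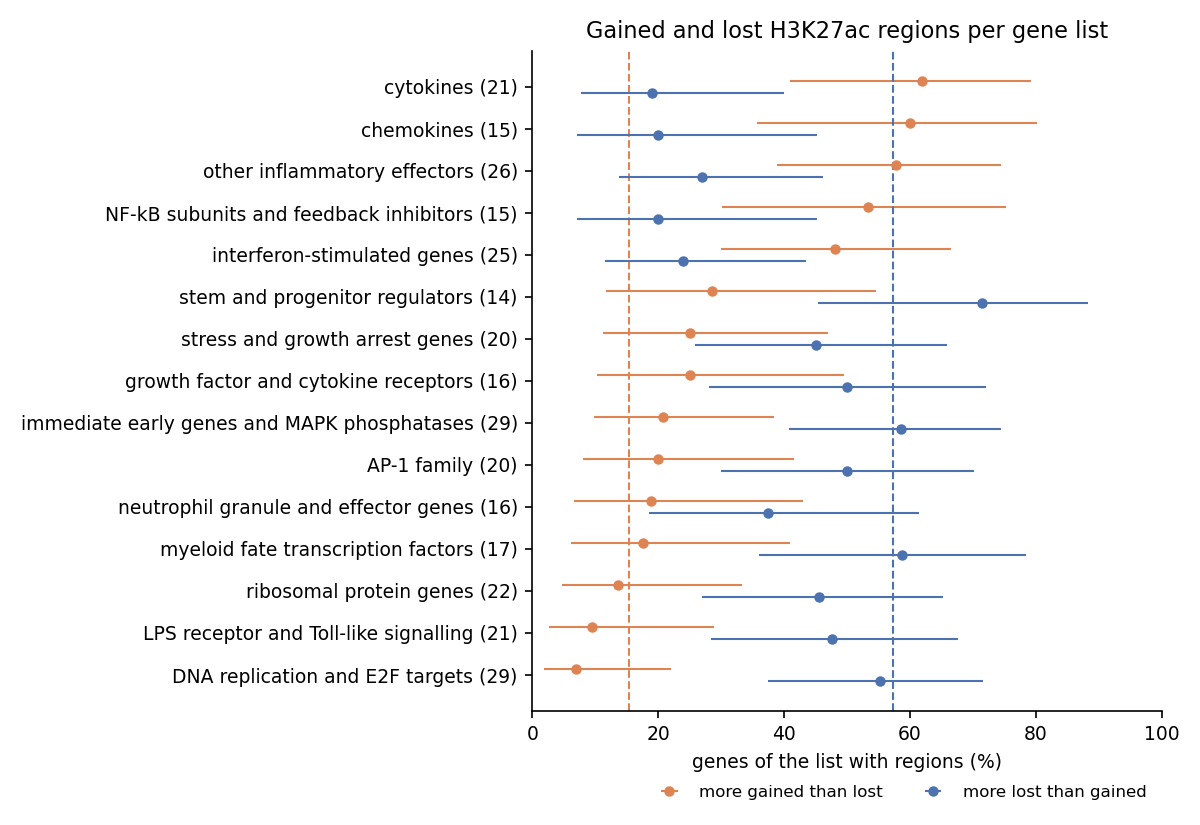
Share of the genes of each list (with the number that had regions) that had more gained than lost (orange) or more lost than gained (blue) H3K27ac regions with LPS, in % with Wilson 95% intervals, and all genes as dashed lines (15.3% and 57.3%). Cytokines (61.9%), chemokines (60.0%) and other inflammatory effectors (57.7%) lie at the top and DNA replication genes (6.90%) at the bottom.

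Among NF-kB subunits and inhibitors, 8 of 15 genes had more gained and 3 more lost regions. This balance did not hold when every region within 50 kb of a gene was counted for it (6 and 7 of 15), and without chromosomes 1, 16 and 17 it was 6 and 3 of 13. In the 50 kb count 40.0% of the list had more gained and 46.7% more lost regions, against 14.7% and 70.7% of all genes. *Nfkbiz* had 13 gained and 6 lost regions, *Tnfaip3*, the ubiquitin editor A20 that ends NF-kB signalling, had 11 and 4, and *Tnip1*, a binding partner of A20, had 5 and 2. An intronic region of *Tnfaip3* went from 4.45 to 9.37, and from 3.28 to 56.1 in p30 cells. The subunit genes *Rel* (5 gained, 11 lost) and *Rela* (0 and 4) stood on the other side. *Nfkb1* had 11 and 12. All 15 promoters were marked in both lists. Of these, 5 were above 0 and the median was -0.14, near the values for promoters of all genes (34.6% and -0.13). Those of *Nfkbiz* and *Tnip1* (46.4 to 21.0, -1.06) were lowered, as were 30 of 10890 promoters of all genes. The promoter of *Nfkbia*, the gene of the classical inhibitor IkBα, stood at 38.4 and 23.8 (-0.61). At *Nfkbie*, the gene of IkBε, a promoter region at -344 bp went from 5.60 to 13.0 (1.29).

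The receptor and signalling genes upstream of NF-kB did not share the gains. Of 21 genes of the LPS receptor and Toll-like pathway, 2 had more gained regions (9.52%) and 10 more lost ones (47.6%). *Irak3*, an inhibitor of the pathway that is itself induced by LPS, was the member with the most gains (8 gained, 0 lost). *Ly96*, which encodes the LPS-binding partner of TLR4, had 1 and 0, and *Map3k8* 5 and 5. *Tab2* (3 gained, 17 lost), *Traf3* (7 and 15) and *Tlr2* (7 and 13) had the most losses. The *Tlr4* promoter stood at 17.5 and 21.4, and that of *Cd14* at 51.7 and 39.1.

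Among chemokines, 9 of 15 genes had more gained and 3 more lost regions. *Ccl5*, which attracts T cells and monocytes, had 8 gained and no lost regions, and its gained intronic region reached 7.07 with LPS. *Ccl2*, *Ccl17* and *Cxcl10* had 2 gained and no lost regions each. The promoters of *Cxcl10* (3.28) and *Ccl17* (3.23) were themselves gained. The *Cxcl2* promoter, of a neutrophil attractant, was raised from 5.31 to 11.1. *Cxcl1*, *Cxcl3* and *Ccl6* each had 1 lost and no gained region. Promoters of *Ccl3* (47.0 and 37.8) and *Ccl4* (23.2 and 29.4) were strongly marked before LPS and lay on either side of the centre.

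Cytokine genes gave 13 of 21 with more gained and 4 with more lost regions. *Il6*, the most gained, had 10 gained and 1 lost region, and its promoter went from 10.2 to 19.8 (1.04), and from 6.30 to 15.3 in p30 cells. *Il1a* had 6 gained and no lost regions and *Il1b* 5 and 1, both encoding forms of interleukin-1. Upstream of *Il12b*, a subunit of interleukin-12, a region went from 3.77 to 14.3 (2.00). The *Lta* promoter, of lymphotoxin alpha, was raised from 2.76 to 7.29 (1.48), and in p30 cells from 4.67 to 50.5. The neighbouring *Tnf* promoter was already strong and stood at 51.1 and 44.1 (-0.13). *Csf1* (1 gained, 6 lost), *Il12a* (7 and 11) and *Il15* (1 and 5) had the most losses.

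Other inflammatory effectors gave 15 of 26 with more gained and 7 with more lost regions. *Traf1* (9 gained, 1 lost), *Acod1* (8 and 0) and *Saa3* (4 and 0), an acute phase protein gene, led the list. The promoter of *Slfn2*, a gene of immune cell growth control, was raised from 15.9 to 32.4. Within 50 kb of *Acod1* 6 of 22 kept regions were raised and peaks covered 35840 bp with LPS against 23494 bp without. In *Bcl2l1*, which encodes the survival factor BCL-XL, an intronic region went from 1.92 to 6.20 in p42 and from 4.59 to 49.1 in p30 cells. *Il4ra* (0 gained, 6 lost), *Tnfaip8* (10 and 15) and *Bcl2l1* (1 and 4) had the most losses.

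Of 25 interferon-stimulated genes with regions, 12 had more gained and 6 more lost regions. The direction turned when every region within 50 kb was counted (9 and 12 of 28), and without chromosomes 1, 16 and 17 the numbers were 11 and 5 of 22. In the 50 kb count these were 32.1% and 42.9% of the list, against 14.7% and 70.7% of all genes. *Socs3*, a feedback inhibitor of cytokine signalling, had 12 gained and no lost regions, *Rsad2*, an antiviral enzyme, 4 and 0, and *Cmpk2* 3 and 0. *Trim25* (0 gained, 6 lost), *Socs1* (2 and 3) and *Ifit2* (1 and 2) were at the other end. The 20 promoters marked in both lists had a median change of 0.53 and 16 of them lay above 0, against a median of -0.13 and 34.6% above 0 for the promoters of all genes. Chemokine promoters had a median of 0.35, with 5 of 7 above 0. Raised promoters numbered 3 of 20 here and 0.542% of all promoters. They belonged to *Oasl1* (11.1 to 26.6), *Stat2* (15.7 to 31.5) and *Oas3* (3.91 to 7.84). Promoter regions of *Ifit1* (3.78) and *Ifit2* (4.06) were gained and the weak one of *Irf7* (2.38 untreated) was lost. *Socs3* itself had a lower promoter with LPS (28.9 and 16.9), and *Irf1* (43.9 and 28.9) likewise.

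**Figure D3:**
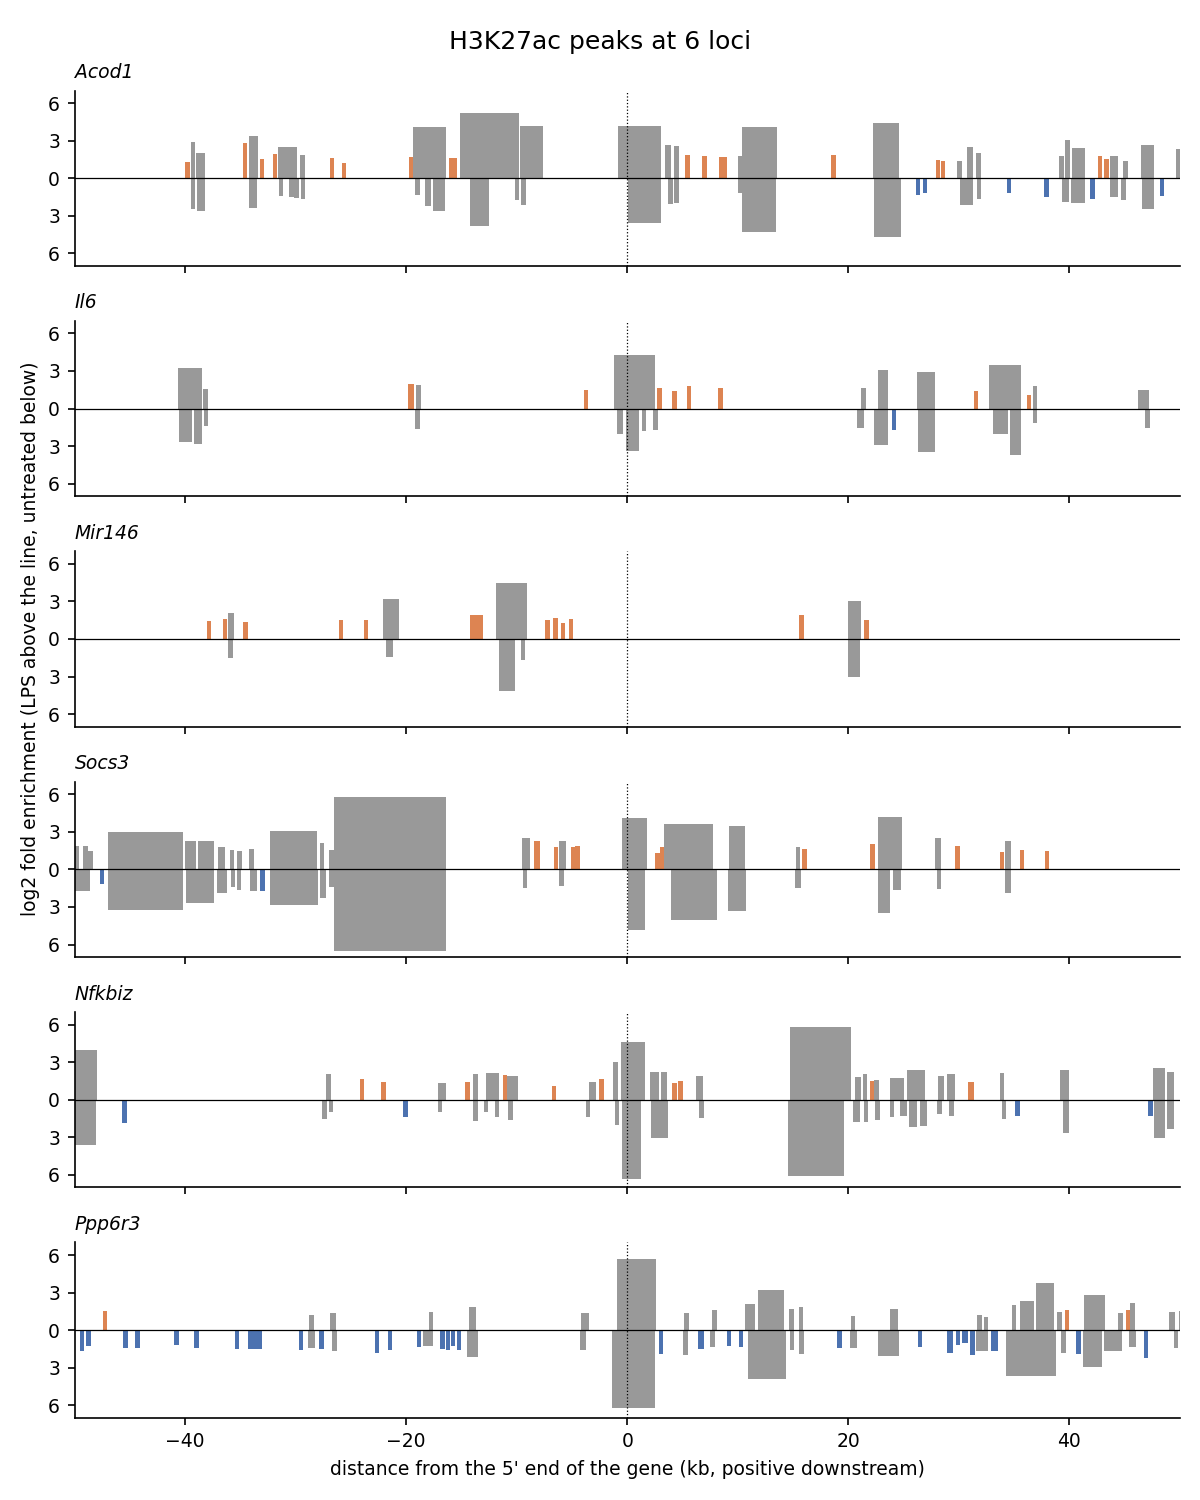
H3K27ac peaks of p42 cells within 50 kb of the 5' ends of 6 genes, drawn by distance from the gene's 5' end (kb, downstream to the right) with log2 fold enrichment upwards for LPS and downwards for untreated cells. Grey peaks overlap a peak of the other list, orange peaks were found only with LPS and blue ones only without, and peaks under 400 bp are drawn wider. *Mir146* has 12 gained and no lost regions and *Ppp6r3* 3 gained and 30 lost.

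Over all protein-coding genes, the 10 with the largest excess of gained regions were *Dock10* (41 gained, 8 lost), *Tiam1* (62 and 40), *Psmg1* (23 and 5), *Nek2* (15 and 2), *Jade2*, *Pttg1* and *Socs3* (12 and 0 each), *Cd47* (18 and 7), *Fyb1* (14 and 3) and *Coq8a* (12 and 1). Of these, 6 lie on chromosome 1 or 16, and 4 of the 5 windows of 100 kb with the largest excess lie on chromosome 1, 16 or 17. On chromosome 16 a window at chr16:95600001-95700000, between *Ets2*, a transcription factor gene, and *Psmg1*, held 23 gained and 1 lost region, and the next one held 20 and 5. The window at chr17:29600001-29700000, which ends before *Pim1*, a cytokine-induced kinase gene, held 17 and 1. The window at chr1:80500001-80600000 in *Dock10* held 21 and 3. Outside these chromosomes the window with the largest excess was chr2:126100001-126200000 in *Atp8b4* with 15 and 1.

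*Pttg1* on chromosome 11 neighbours *Mir146*, the gene of the microRNA miR-146a, which is induced by NF-kB and restrains Toll-like signalling. This locus was looked up after its values were seen. Within 50 kb of *Mir146* there were 12 gained and no lost regions, all 4 kept regions were above 0, and peaks covered 10798 bp with LPS against 3572 bp without. The mature miRNA is given from RefSeq (GRCm38.p6) because the locus is known by its product, with the seed (bases 2 to 8) in capitals.
miR-146a-5p: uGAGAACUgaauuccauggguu

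In the lists from outside the inflammatory response more members had an excess of losses than of gains, as was the case for all genes. With lists of equal length the order turned for immediate early genes (12 with more gained, 8 with more lost), stress genes (8 and 5), stem and progenitor regulators (7 and 5) and granule genes (6 and 5), and receptors had 6 and 6. Of 29 immediate early genes and MAP kinase phosphatases, 6 had more gained and 17 (58.6%) more lost regions. *Ier5* (5 gained, 2 lost), *Dusp4* (4 and 1) and *Fosb* (2 and 0) led, and *Dusp5* (4 and 9), *Ier3* (0 and 4) and *Dusp1* (1 and 4) were at the other end. The AP-1 family gave 4 and 10 of 20, with gains at *Batf* (9 gained, 1 lost), *Batf3* (5 and 0) and *Fosb* and losses at *Atf7*, *Jdp2* (both 4 and 12) and *Atf2* (2 and 8). Of its promoters 2 of 17 lay above 0, with a median of -0.24 and an upper quartile of -0.17. The strongest of the 10 strength classes of all kept regions had a median of -0.18, with quartiles of -0.36 and 0.04, and strong promoters are to be read against it. The *Fos* promoter stood at 76.3 and 67.9 and that of *Junb* at 72.1 and 46.9. Stress and growth arrest genes gave 5 and 9 of 20. *Gadd45a*, a growth arrest gene, had 5 gained and no lost regions, *Pmaip1* 8 and 5 and *Hmox1* 3 and 2, and *Chac1* (0 gained, 10 lost), *Trib1* (2 and 8) and *Gadd45g* (0 and 5) had the most losses.

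Stem and progenitor regulators and myeloid transcription factors gave 4 and 10 of 14, and 3 and 10 of 17. At least 1 raised region was present at 5 of the 14 and at 0 of the 17, against 3.86% of all genes. The lists held 309 and 193 kept regions, of which 5 and 0 were raised. *Kit*, the stem cell factor receptor, had 9 gained and 5 lost regions, *Cd34* 4 and 3 and *Gata2* 3 and 2. *Meis1* (9 gained, 16 lost), *Fli1* (2 and 9) and *Lmo2* (4 and 9) had the most losses. The region over the *Erg* promoter was lowered from 57.3 to 21.8 (-1.31), and stood at 46.4 and 42.3 in p30 cells. *Cebpb* (7 gained, 4 lost), *Bcl6* (3 and 0) and *Bhlhe40* (5 and 4) led the myeloid factors, and *Gfi1* (3 and 15), *Zeb2* (16 and 20) and *Cebpd* (6 and 8) closed them. Promoters of this list had a median of -0.45 and 3 of 15 lay above 0. Those of *Egr1* (37.2 and 19.7) and *Cebpb* (36.9 and 20.9) were examples, and *Spi1*, which encodes PU.1, stood at 78.7 and 88.6.

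Neutrophil granule and effector genes gave 3 with more gained and 6 with more lost regions of 16. The promoter of *Ly6c2* was gained (3.07) and those of *Ngp* (2.10) and *Mmp9* (3.22) were lost. *Camp* and *Lcn2* had 1 gained and no lost region each, and *Ltf* had 5 lost and no gained ones, *Ngp* 4 and *Mmp9* 3. Growth factor and cytokine receptors gave 4 and 8 of 16. *Tnfrsf1b*, the second TNF receptor, had 7 gained and 1 lost region and a gained promoter region (3.07), *Kit* and *Ifnar1* (7 and 3) followed, and *Ifngr1* (2 and 10), *Csf3r* (0 and 4) and *Il1r1* (1 and 4) had the most losses. DNA replication and E2F target genes gave 2 and 16 of 29, with *Mcm5* (0 gained, 7 lost), *Rrm1* (0 and 6) and *Mcm2* (1 and 5) at the end and *Mcm3* (4 and 0), *Dut* (2 and 0) and *Brca1* (4 and 4) at the front. Their promoters had a median of -0.29, with 3 of 29 above 0. Ribosomal protein genes, a list of steadily used genes, gave 3 and 10 of 22, with a promoter median of 0.01. *Rpl7* (2 and 0), *Rpl11* and *Rps9* (1 and 0 each) led, and *Rpl32* (1 and 8) and *Rps14* (1 and 4) were among those with the most losses.

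The promoters with the largest rises in the stronger part of either list were those of *Clec4a1* (4.55 to 15.7), *Lta*, *Hmga1b*, *Pck2*, *H2-T24* (18.1 to 43.8), *Dda1*, *Tbl3*, *Ifi208*, *Dnmt3l* and *Nfkbie*. Of these 10, 5 lie on chromosome 1, 16 or 17, and in p30 cells *Hmga1b* (-0.17) and *Dda1* (-0.13) were below 0. *Clec4a1* encodes a lectin receptor of myeloid cells and *H2-T24* a class I histocompatibility protein. The largest falls were at *Nfkbiz*, *Pou2f1* (50.7 to 17.2), *Slc35a2*, *Klf11* (53.7 to 20.5), *Kyat1*, *Tob2*, *Atpsckmt*, *Snrnp35*, *Kmt2c* and *6430548M08Rik*, and 2 of them lie on chromosome 1 or 16. In p30 cells 9 of these 10 promoters were also below 0, though *Snrnp35* only at -0.02, and *Tob2* stood above it at 0.21.

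The 10 genes with the largest excess of lost regions were *Svil* (11 gained, 64 lost), *Ppp6r3* (3 and 51), *Eif4g3* (11 and 56), *Trappc9* (8 and 53), *Ubr4* (11 and 54), *Pan3* (5 and 44), *Sipa1l3* (11 and 48), *Cux1* (12 and 47), *Sipa1l1* (7 and 42) and *Rere* (20 and 54). None lies on chromosome 1, 16 or 17. The 100 kb windows with the largest excess of loss held *Hectd4* (1 gained, 36 lost), *Emc1* and *Ubr4* (9 and 42), *Ep400* with *Ddx51* and *Noc4l* (1 and 33), *Flt1* and *Pan3* (3 and 33), and *Foxk2* with *Cybc1*, *Hexd* and *Narf* (2 and 32). Within 50 kb of the *Ppp6r3* start LPS peaks covered 19904 bp, where untreated peaks covered 35516 bp, with 19 kept regions of which 7 were above 0.

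In distal regions, those with the strongest summit outside promoters, 1000 bp centred on that summit were searched on both strands for 11 motifs and 2 control patterns. NF-kB matches were found in 11.0% of gained (10.5 to 11.4), 7.89% of lost (7.65 to 8.13) and 10.4% of kept regions, and in 9.60% of all distal regions. In raised regions the share was 18.4% (15.5 to 21.8), and in lowered ones 10.6%. AP-1 sites (TGANTCA) were found in 30.4% of gained, 25.6% of lost, 29.2% of kept and 28.1% of all regions, in 46.4% (42.4 to 50.5) of raised and in 23.8% of lowered ones. The reversed letters of the NF-kB motif, a control, gave 12.4%, 11.5%, 13.1% and 12.4% in gained, lost, kept and all regions and 14.8% (12.2 to 18.0) in raised ones. The reversed AP-1 motif (ACTNAGT) gave 25.7%, 26.3%, 24.7% and 25.4%, and 28.7% (25.2 to 32.5).

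Stronger gained regions had larger shares of both motifs, and of some others. Among gained regions the NF-kB share was 20.8% (17.9 to 24.0) between 20% and 40% of the way down the LPS list, and 12.7%, 10.5% and 9.90% in the 3 weaker classes of that width. The strongest class held only 15 distal gained regions. AP-1 gave 40.8%, 33.4%, 30.4% and 28.6% in the same order. Lost regions showed no such slope for NF-kB, at 7.57% between 20% and 40% of the untreated list and 8.05% in the weakest class. In the same classes AP-1 stood at 26.6% and 25.3% and PU.1 at 9.71% and 6.67%. Gained and lost regions had like GC contents (medians of 45.1% and 45.4%), and within the lowest, middle and highest GC class NF-kB was found in 6.81%, 11.1% and 17.0% of gained against 4.42%, 7.53% and 12.9% of lost regions. Over kept regions the AP-1 share climbed from 23.8% in the lowered through 27.4% between -0.25 and 0 to 35.6% between 0.5 and 1 and 46.4% in the raised.

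The interferon response element (ISRE) was found in 21.2% (18.0 to 24.6) of raised regions, 12.8% of lowered and 13.4% of all. CEBP sites (TTGCNNAA) were most frequent in regions that moved either way, at 46.1% (40.4 to 51.9) in lowered and 40.6% (36.7 to 44.6) in raised against 34.6% in all. The composite CEBP:ATF4 site (TGATGCAA) gave 5.97% in raised, 4.26% in lowered and 2.68% in all. PU.1 sites (GAGGAAGT) were fewer in gained (7.48%) and lost (7.53%) than in kept regions (12.5%). The letters AGATAA, which GATA factors bind, were found in 44.2% of gained and 40.6% of kept, and RUNX (TGTGGTT) in 24.7% and 25.4%. Like CEBP, PU.1 and RUNX were more frequent in regions that moved either way. PU.1 stood at 18.4% in lowered and 14.7% in raised against 10.0% in all, and RUNX at 30.5% and 30.9% against 25.0%. The GC box (GGGCGG) was found in 13.2% of gained and 21.4% of kept regions, and the cyclic AMP element (TGACGTCA) in 0.782% and 1.14%. Both kept shares were highest in the strongest rank class of the LPS list (41.8% and 2.31%), which held few gained regions. In the next class the GC box stood at 15.5% in gained and 16.9% in kept regions, and in the weakest at 13.1% and 14.5%. The cyclic AMP element stood at 0.732% and 0.911%, and at 0.806% and 0.782%. Below the strongest class the GC box gap was thus smaller, though gained regions stayed lower. The SRF box was found in 5.08% of gained and 4.92% of kept regions.

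**Figure D4:**
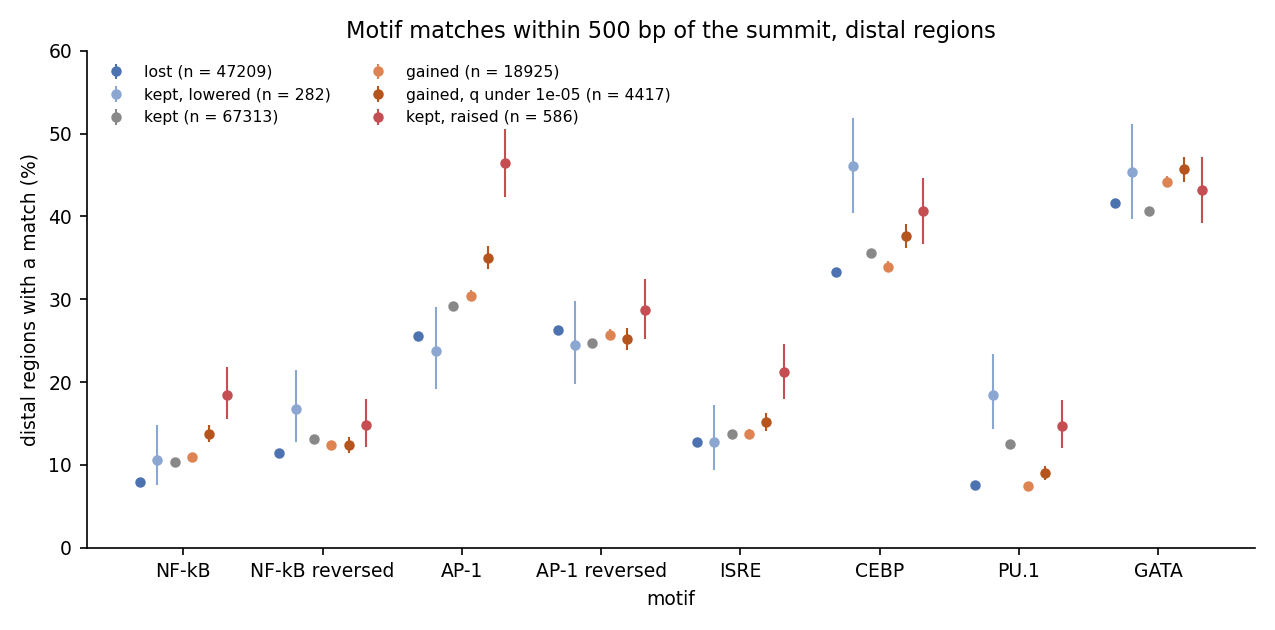
Share of distal regions (%) of 6 classes with a match to each of 8 sequence patterns in the 1000 bp around the summit, with Wilson 95% intervals. NF-kB and AP-1 matches are at 7.89% and 25.6% in lost and at 18.4% and 46.4% in raised regions, while their reversed letters stay between 11.5% and 16.7% and between 24.5% and 28.7%.

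Other lists of untreated p42 cells showed what the regions carried before LPS. H3K4me1 (2 samples), a mark of primed and active enhancers, was present in the 1000 bp window of 39.1% of gained, 33.1% of lost and 54.4% of kept regions, of 66.0% of raised and of 74.3% of lowered ones. Sites of the anti-CEBPA antibody (1 sample, as for anti-ER) were present in 5.25%, 3.92% and 12.8% of gained, lost and kept regions, and in 25.9% (22.6 to 29.5) of raised and 32.7% (27.6 to 38.1) of lowered ones. Peaks of the anti-ER antibody, which binds the other end of the fusion protein, gave 3.91%, 2.94% and 13.7%, and 23.5% and 36.3%. Gained regions between 20% and 40% of the LPS list had anti-CEBPA sites in 15.7% and those of the weakest class in 3.73%. Kept regions of the same ranks had them in 15.2% and 4.42%. At like rank the gained and kept regions thus had similar shares of these sites. For H3K4me1 the shares between 20% and 40% were 43.9% of gained and 69.4% of kept regions. Raised and lowered regions also ranked higher than most kept ones. Raised regions lay at a median of 20.2% of the LPS list, against 38.5% for kept regions. Lowered regions lay at a median of 13.4% of the untreated list, against 30.3%. Kept regions in the strongest 20% of these lists had anti-CEBPA sites in 22.2% and 21.7%, and anti-ER peaks in 25.6% and 25.3%. Binding with LPS is not analysed here.

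p30 cells were measured in other samples and were looked up at the same regions. Of the gained regions 51.5% had a peak in the p30 LPS list and 44.3% in the untreated one, of the lost regions 46.3% and 52.3%, and of all regions 69.6% and 70.4%. A p30 peak only with LPS was present at 20.5% of gained, 12.4% of lost, 5.34% of kept and 9.83% of all regions. Gained regions of p42 overlapped 1 gained in p30 in 17.2% (3350), and 8.59% of the 38758 regions gained in p30 overlapped 1 gained in p42. For the gained regions between 20% and 40% of the LPS list the p30 LPS share was 76.6% and the untreated one 44.0%.

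Of the raised regions, 506 had p30 peaks in both lists, 84.2% (80.8 to 87.1) of them were above the p30 centre, the median was 0.45, and 110 (21.7%) were raised in p30 as well and 0 lowered. Of all kept regions with both p30 peaks 2.48% were raised and 1.94% lowered in p30 cells. Of the lowered regions, 283 had both p30 peaks, 22.6% (18.1 to 27.8) were above the centre and the median was -0.32. Without chromosomes 1, 16 and 17 the share above the centre in raised regions was 87.5% of 343. The difference between the lines could not be tested, because each list is a single pooled call.

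**Figure D5:**
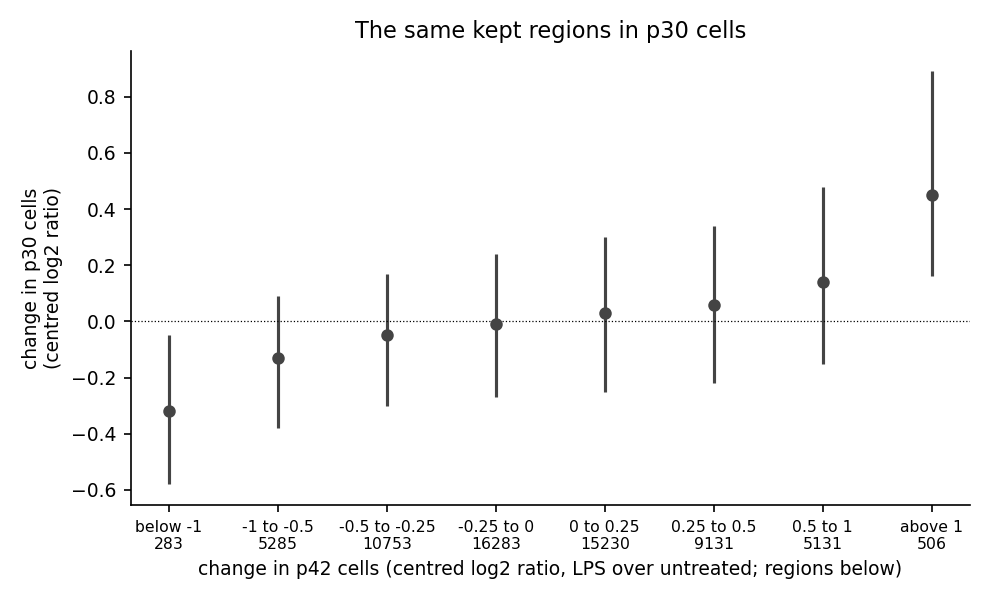
Change with LPS in p30 cells (centred log2 ratio of fold enrichment, points are medians, bars span the middle 50% of regions) by the change of the same kept regions in p42 cells, with the number of regions under each class. The p30 median goes from -0.32 at regions below -1 in p42 cells to 0.45 at those above 1.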

How the data were processed

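H3K27ac was measured by ChIP-seq in 3 samples per group, grouped by the sample labels. By the study's methods, reads were trimmed with Trim Galore (0.6.6 in the submitters' processing notes), aligned with Bowtie2 to mm39 and cleared of duplicates with Picard, and MACS2 called peaks on pooled replicates against input. The lists deposited by the authors give for each peak a fold enrichment, which is a ratio to the local background at the summit, and the −log10 of a p-value and of a q-value. They reach a q-value of 0.05. Each fold is relative to its own list, so yield, depth and fragmentation of a library can move the number of peaks and the folds, and the depth behind each list is not given.

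Regions were built with Python 3.11.15, numpy 2.4.6 and pandas 2.3.3, and drawn with matplotlib 3.10.9. Peaks were ranked by −log10 p. Genes came from GENCODE M39 on GRCm39, the same assembly as mm39, and only those of the protein-coding type were used. Raised and lowered meant a centred log2 ratio of at least 1 or at most -1. For a gene with several promoter regions the strongest one was counted. NF-kB, its reversed form, SRF and ISRE were searched as degenerate consensus sequences. The steps were tested on simulated lists with known classes. Alternatives are in the closing section. Leaving out replicates was not possible with pooled lists.

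Named were, by rule, 3 members at each end of each gene list and every member with a gained or lost promoter, 10 genes, regions, rises and falls at each end over all genes, and 5 windows of 100 kb at each end. Other list members are named as examples. Some members that this rule names are not reported here. The comparison, the gene lists and the motifs were chosen with earlier results of these data known.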

Additional observations from a re-analysis of the deposited data

Results flagged for a closer look

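The number of peaks at a q-value under 1e-05 changed by -13.8% with LPS in p42 cells and by 4.54% in p30 cells. The median fold enrichment changed by 6.22% in p42 cells and by -1.57% in p30 cells. The sequence covered by peaks changed by -16.8% in p42 and by -0.860% in p30 cells, in the same direction. Whether p42 and p30 cells differ in this was not tested, since each value comes from 1 pooled list per group.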

How the results depend on the processing

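No p-value underlies these results, so an alternative could only move a value. No paired analysis was possible because each group has 1 pooled list, and for the same reason no replicate could be left out. Kept regions were 49512 with a q-value under 1e-05 in both lists and 45009 with peaks within 1000 bp stitched. Gained regions were 9773 at 1e-05 in both, 4577 when presence needed 1e-05 and absence 0.05, 6410 stitched and 52805 with reciprocal overlap of 50%. Lost regions were 24013, 13542, 18890 and 75036 in the same order, and 31738 with equal peak numbers. In a 500 bp window NF-kB was found in 6.19% of gained, 4.41% of lost and 10.2% of raised regions, and AP-1 in 16.8%, 13.9% and 26.3%. With presence at 1e-05 and absence at 0.05 the shares were 13.8% of gained and 7.39% of lost for NF-kB and 35.0% and 26.2% for AP-1. H3K4me1 peaks overlapped the merged region itself in 28.2% of gained and 24.4% of lost regions. Inflammatory genes with more gained regions made 72.7% with equal peak numbers, and those with more lost ones 13.0%, against 26.8% and 40.6% of all genes. Counting every region within 50 kb, more lost ones were found at 36.7% of inflammatory, 82.8% of DNA replication and 70.7% of all genes. With raised regions chosen by difference in percent rank 210 of 633 were the same, inflammatory genes with a raised region made 13.0% in place of 26.0%, and 59.5% in place of 84.2% of raised regions were above the p30 centre. Without chromosomes 1, 16 and 17, an alternative added after the data were seen, that share was 87.5%. In each alternative run on both classes (500 bp window, equal peak numbers, the stricter presence, and without the 3 chromosomes) NF-kB and AP-1 were more frequent in gained than in lost regions. Limits are that the depth behind each list is not given, single pooled lists and the forced expression in 1 line.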
